A study of Mus musculus with 20 samples.

Results

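Of 61496 H3K27ac peaks mapped in the mammary epithelial cell line Comma-Dβ, derived from mouse, 14578 (23.7%) lay far from genes and are described here. They were chosen by position, width and overlap with other marks, all values of the peak lists themselves, as autosomal peaks narrower than 10000 bp that overlapped no H3K4me3 peak and no H3K27me3 peak and lay 10 kb or more outside the span of every protein-coding gene. They are called far peaks below. Chromatin immunoprecipitation with sequencing was done at passage 28 with antibodies to HEB (the E protein encoded by Tcf12), H3K27ac, H3K4me3 and H3K27me3, beside input chromatin, in 4 replicates each (20 samples, 5 groups, no added treatment named in the labels). All cells were of 1 established line, grown in medium with serum, insulin and epidermal growth factor, so the lists describe that line and not mammary tissue. Each antibody has 1 deposited peak list with no value per replicate, so no spread between replicates exists for any number here, the depth is unknown, and no difference below was tested. Intervals are 95% Wilson intervals and cover counting error only.

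H3K27ac is an acetyl mark on the tail of histone H3 that is placed by the coactivators p300 and CBP at active promoters and enhancers. Away from promoters, where H3K4me3 is scarce, acetylated stretches are commonly read as candidate enhancers, which can act on genes over long distances. HEB is a basic helix-loop-helix factor that binds the E-box, CANNTG, as a dimer with related factors, and Id proteins block such dimers. The lists hold neither H3K4me1 nor contacts between regions, so no far peak was assigned a target, and the nearest protein-coding gene is given as an address only.

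Genome sequence was not used here, but the RefSeq table of gene starts (assembly GRCm38.p6, the basis of mm10) gives the 250 bases before and 50 after each start. Of 31396 such autosomal windows, 325 lay wholly inside a far peak, and all of them belonged to long noncoding RNA (lncRNA) genes, since the choice of peaks removes coding genes. Of these, 7 windows were touched by an HEB site, and 6 of the 7 held an E-box (85.7%, 48.7 to 97.4). An E-box also stood in 78.2% of the 325 windows and 72.2% of all autosomal windows, so this count of CANNTG was near the background. The narrower E-box CAGCTG stood in 4 of the 7 (57.1%, 25.05 to 84.2). It stood in 17.2% (13.5 to 21.7) of the 325 windows, which include the 7, and these intervals do not overlap. CAGGTG or CACCTG stood in 3 of the 7 (42.9%, 15.8 to 74.95), against 19.7% (15.7 to 24.4), and these intervals overlap. With 7 windows the shares are imprecise, and no difference was tested. The 4 windows printed show DNA inside a far peak under or beside an HEB site, with many, few or no E-boxes. Each reads 5′ to 3′ on the strand of its gene, with CANNTG and TGANTCA in capitals, TGANTCA being the AP-1 motif. Gm8883 lies at chr1:71887862-71888161 on the plus strand, and Gm12415 at chr4:84741225-84741524 on the plus strand. Gm33078 lies at chr11:57911859-57912158 on the plus strand, and Gm46162 at chr1:151250491-151250790 on the minus strand.
Gm8883: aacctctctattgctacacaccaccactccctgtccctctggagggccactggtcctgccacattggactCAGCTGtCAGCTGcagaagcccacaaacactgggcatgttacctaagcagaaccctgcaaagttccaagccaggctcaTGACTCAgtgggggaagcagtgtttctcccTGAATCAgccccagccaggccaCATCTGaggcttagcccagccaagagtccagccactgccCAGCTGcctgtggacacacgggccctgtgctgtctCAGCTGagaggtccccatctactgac
Gm12415: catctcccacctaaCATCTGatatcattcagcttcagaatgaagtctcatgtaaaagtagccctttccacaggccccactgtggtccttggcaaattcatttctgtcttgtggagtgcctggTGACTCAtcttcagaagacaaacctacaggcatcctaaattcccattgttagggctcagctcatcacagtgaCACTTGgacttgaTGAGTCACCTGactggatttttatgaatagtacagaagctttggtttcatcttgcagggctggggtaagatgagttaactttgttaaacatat
Gm33078: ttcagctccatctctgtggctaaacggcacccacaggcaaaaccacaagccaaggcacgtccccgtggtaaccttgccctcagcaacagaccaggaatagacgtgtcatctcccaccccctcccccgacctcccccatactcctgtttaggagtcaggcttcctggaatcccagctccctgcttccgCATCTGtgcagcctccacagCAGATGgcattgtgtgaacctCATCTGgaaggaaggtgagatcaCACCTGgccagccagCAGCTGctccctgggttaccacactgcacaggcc
Gm46162: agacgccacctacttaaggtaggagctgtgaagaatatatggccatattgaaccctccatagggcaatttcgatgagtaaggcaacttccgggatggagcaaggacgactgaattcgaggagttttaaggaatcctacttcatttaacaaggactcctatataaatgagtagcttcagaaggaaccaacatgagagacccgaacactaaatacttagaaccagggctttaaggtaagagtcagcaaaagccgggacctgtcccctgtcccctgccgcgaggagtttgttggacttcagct
The Gm8883 window was covered by its HEB site over all 300 bases and held 5 E-boxes, 4 of them CAGCTG, with 2 AP-1 matches between them. It sits in a far peak of 3166 bp and 4.81-fold enrichment, 233 kb from Fn1, which encodes fibronectin. Gm12415, 64.9 kb from Bnc2 (a zinc finger protein gene), shared 209 bases with its site and held 3 E-boxes and 2 AP-1 matches, of which one E-box and one AP-1 match overlap as TGAGTCACCTG. Gm33078, in an 8174 bp peak of 6.95-fold, shared 176 bases and held 5 E-boxes. Gm46162 shared 42 bases and held 0 E-boxes, which says only that these letters are not in this window.

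Far peaks were mostly narrow and of modest enrichment. These values come from the list that chose the peaks and describe them. Their median width was 1234 bp (quartiles 671 and 2089, range 239 to 9968) and the authors' fold enrichment over control had a median of 2.34 (quartiles 2.01 and 3.06, highest 14.3). Intragenic peaks, meaning those inside a coding gene and over 1 kb from its ends and chosen otherwise alike, had a median width of 1072 bp and a median fold of 2.12 over 24697 peaks. The 4339 intergenic peaks under 10 kb from a gene had 1109 bp and 2.25. A −log10 q of 5 or more was reached by 40.8% of far peaks, 28.2% of intragenic peaks and 36.5% of near intergenic peaks. Only 699 far peaks (4.79%) were among the top 10% of autosomal H3K27ac peaks by fold. Wider far peaks were the stronger ones, with a median fold of 2.02 under 1 kb, 2.43 at 1 to 2 kb, 3.31 at 2 to 4 kb and 4.18 at 4 to 10 kb.

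The strongest far peak, at 14.3-fold, lay 24.6 kb upstream of Gpr157, an orphan G protein-coupled receptor gene. Peaks at 13.5-fold near 1700021F07Rik and 13.4-fold near Crabp1, which encodes a retinoic acid-binding protein, followed. Sertad4 (13.3-fold), Aldh3a2 (a fatty aldehyde dehydrogenase, 12.1-fold) and Gvin1 (a large interferon-inducible GTPase, 11.5-fold) came next. The other 4 of the top 10 were nearest to Coq2 of coenzyme Q synthesis (11.3-fold), the transcriptional coregulator Mn1 (10.9-fold), the guidance ligand Slit2 (10.7-fold) and Zfp365 (10.53-fold). These 10 lay 14.6 to 340 kb from their genes. Of them, the peaks near Crabp1, Coq2 and Mn1 held an HEB site.

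The 10 widest far peaks had widths of 9526 to 9968 bp. They lay nearest to Hhat, Tspan2, Runx1, Apob, Ptgs2, Clint1, Jade2, Krt42, Msx2 and Vdac1. The peak 98.2 kb upstream of Runx1, a transcription factor of blood and mammary epithelium, was 9922 bp wide at 8.5-fold and held an HEB site, as did the 9809 bp peak (5.59-fold) upstream of Ptgs2, the inducible cyclooxygenase gene. At the edges of the choice, a peak of 2.46-fold at exactly 10000 bp from Dnah7c was taken and one of 1.84-fold at 9992 bp from Tes was not. By width, the 9968 bp peak near Hhat (5.73-fold) was taken and a 10044 bp peak near Cxcl5 (3.99-fold) was not. A further 54 autosomal peaks failed only on width, and 201 on the X chromosome failed only as non-autosomal.

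Far peaks lay a median of 70.5 kb from the nearest coding span (quartiles 28.7 and 178 kb), and 40.2% were 100 kb or more away. At 1 Mb or more stood 181 peaks. The 10 farthest, at 1908 to 2240 kb, were nearest to Celf4, Olfm4, Cdh20 and Cntnap5a, and 9 of them had folds of 1.80 to 2.24. The exception was a 2526 bp peak 2041 kb from Olfm4 with 8.68-fold enrichment. With distance the median fold was 2.40 at 10 to 25 kb, 2.33 at 100 to 250 kb and 2.20 at 500 kb or more. Where the side was known, 55.2% lay upstream of the nearest gene's start and 44.8% beyond its finish, with 25.6% of far peaks next to a gene without a strand in the tables used.

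Gaps between neighbouring coding genes can hold a far peak only if longer than 20 kb, and 3139 of 8321 such gaps (37.7%) held 1 or more. The share was 14.2% for gaps of 20 to 50 kb, 42.8% at 50 to 100 kb, 60.4% at 100 to 250 kb and 89.1% at 1000 kb or more. Counted per Mb of the gap that lies 10 kb or more from both genes, density was 15.5, 18.8, 17.9, 16.6 and 12.2 far peaks per Mb in the successive classes up to 1000 kb. It was 6.18 per Mb in the longest gaps. The longest gaps therefore most often held a far peak and had the fewest per Mb.

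**Figure D1:**
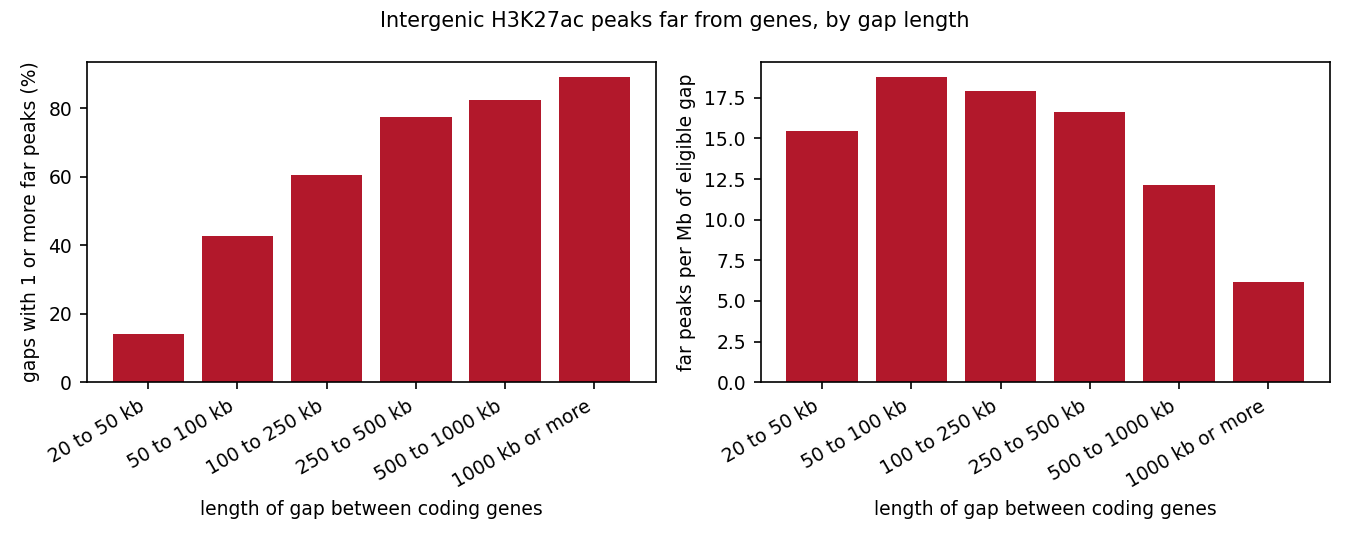
Share of gaps between coding genes that held 1 or more far peaks (left, percent) and far peaks per Mb of gap lying 10 kb or more from both genes (right), by gap length. The share is 14.2% in the shortest class and 89.1% in the longest, while density is highest at 18.8 per Mb for gaps of 50 to 100 kb and lowest at 6.18 per Mb for the longest.

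The gap between Myc, a growth-promoting transcription factor gene, and Gsdmc held 91 far peaks (51.5 per Mb), and the gap on its other side, between A1bg and Myc, held 49 (46.9 per Mb). Rasgrp1 to Thbs1 held 58 at 77.4 per Mb. The gap between the pro-apoptotic gene Bcl2l11 and Spdye4c held 39 at 95.4 per Mb, against 12.05 per Mb over all gaps. The gap next to Efna5 held 56 peaks and that next to Zeb2 held 53, but over 3590 and 3697 kb, at 15.7 and 14.4 per Mb. By chromosome, density ran from 7.67 per Mb on chromosome 18 to 17.8 on chromosome 10, with 17.05 on chromosome 15 and 16.8 on chromosome 13.

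Far peaks close to one another were joined into clusters, at a stitching distance commonly used for enhancers. Of all far peaks, 59.0% stood in 2977 clusters of 2 or more, and 5982 (41.0%) stood alone. Only 26 clusters had 10 or more peaks, 330 peaks in all. Peaks that stood alone had a median fold of 2.25 and width of 1069 bp, against 2.46 and 1807 bp in the clusters of 10 or more.

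The cluster with the most peaks, 28 over 169 kb at chr15:62054348-62223526, lay between Myc and Gsdmc inside the lncRNA gene Pvt1. Its folds ran from 1.76 to 5.21 with a median of 1.98, and 2 of its peaks held an HEB site. The next, 21 peaks over 138 kb, lay between Rasgrp1 and Thbs1, the gene of the matrix glycoprotein thrombospondin 1, at folds of 1.79 to 5.95. Clusters of 16 lay between Rad51b and Zfp36l1 (an mRNA decay factor gene), between Phlda1 and Krr1, and between Slc44a3 and 4930432M17Rik. The cluster of 15 between Dnttip2 and the focal adhesion adaptor gene Bcar3 had the highest median fold of the top 10, at 4.02. The rest of the top 10 were Med13l to Tbx3 (14 peaks), Saraf to Dusp4, Csf1 to Eps8l3 and Gadd45g to Diras2 (13 each). In the Myc cluster most peaks were weak, while Bcar3 and Phlda1 (highest fold 7.23) had stronger ones.

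**Figure D2:**
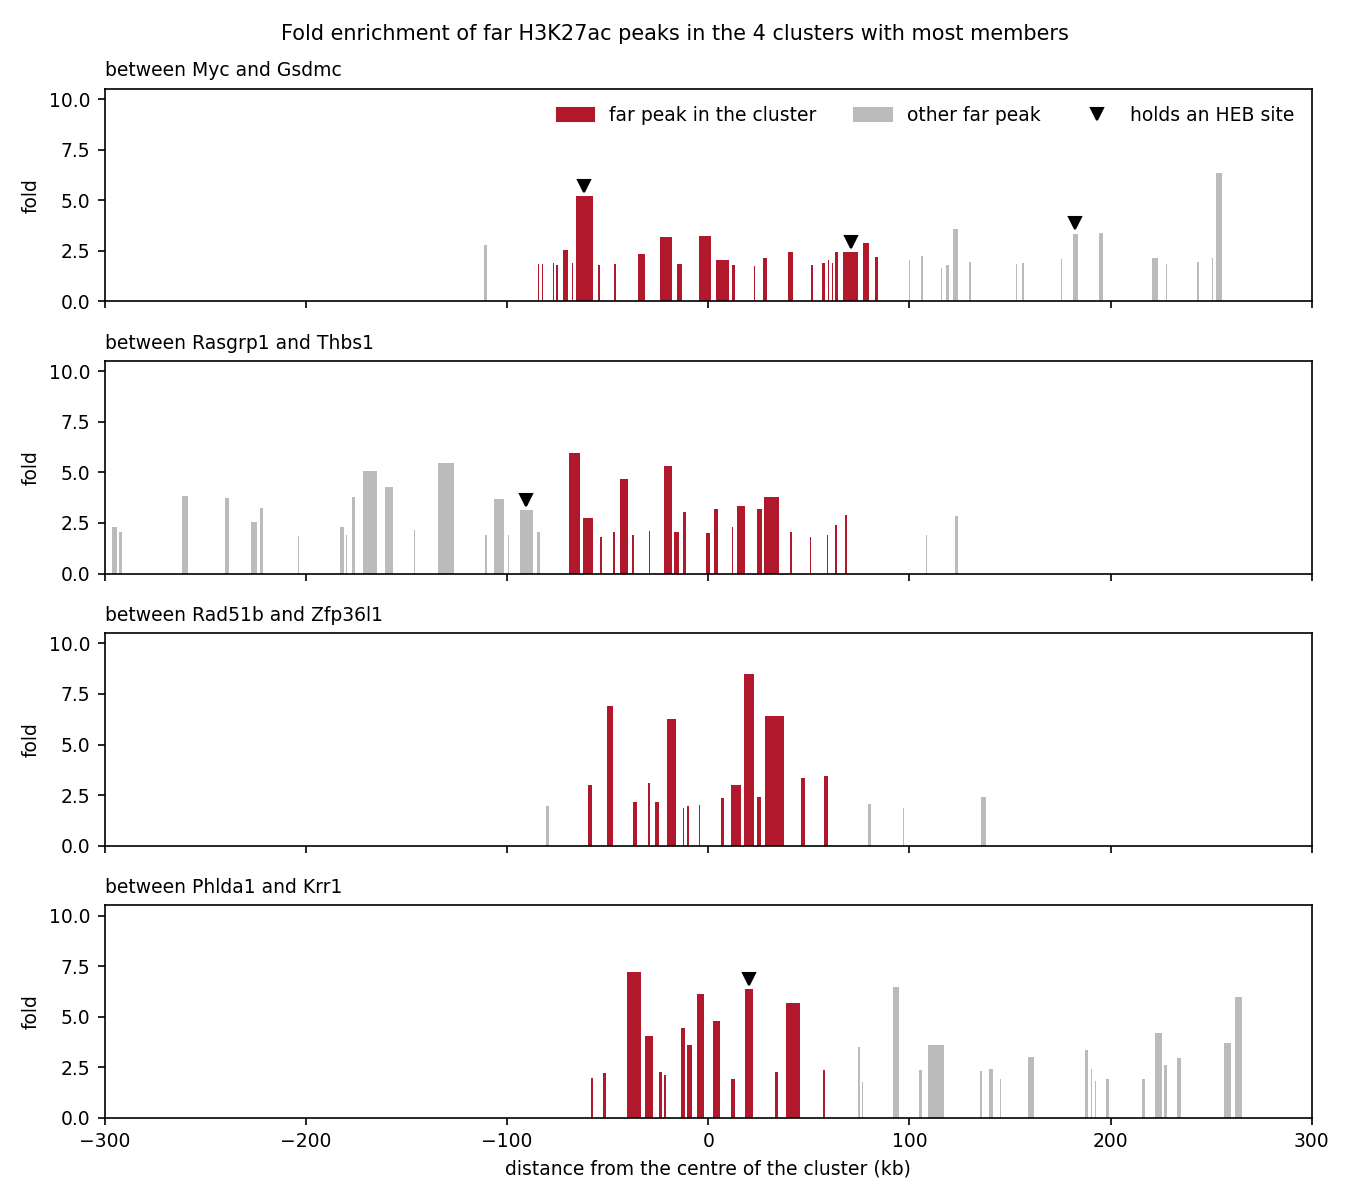
Far peaks in the 4 clusters with the most peaks, drawn to scale by distance from the cluster's centre (kb) and by fold enrichment (bar height), with cluster peaks in red, other far peaks in grey and triangles on peaks that hold an HEB site. The Myc to Gsdmc cluster has 28 peaks of 1.76 to 5.21-fold, and the Rad51b to Zfp36l1 cluster reaches 8.5-fold.

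Assigned to the nearest coding gene, far peaks fell to 3990 of 20661 autosomal genes (19.3%), or 33.5% of the 11901 genes beside a gap over 20 kb. A single far peak was assigned to 1586 genes, and 321 genes (1.55% of all) had 10 or more, of which 64 had 20 or more. Myc had 94, with a median fold of 2.12 and a highest of 10.0, at 37.1 to 880 kb. Cited2, which encodes a partner of CBP and p300, had 43. Thbs1, Zeb2 (a repressor of E-cadherin) and Efna5 (an ephrin ligand) had 39 each. Adgrl2 (an adhesion receptor), Adamts5 (a matrix protease) and Sox9 (a regulator of mammary progenitors) had 36 each, Trps1 (a GATA-type repressor) had 35 and Has2 (hyaluronan synthase) had 34. Counts per gene were not adjusted for gap length. The adjacent gap lying 10 kb or more from genes was 749 kb at Thbs1, the shortest for these 10 genes. It was 2982 kb at Cited2, 3712 kb at Zeb2, 3714 kb at Efna5 and 4240 kb at Adgrl2, the longest. The median fold over the peaks of each of these 10 genes was 1.96 (Sox9) to 2.55 (Thbs1), beside 2.34 over all far peaks. Thbs1, Cited2 and Zeb2 lay above 2.34 and the others below, with Sox9 under the lower quartile of all far peaks, 2.01.

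Many extracellular matrix and mesenchymal genes had a far peak. All shares in this and the next 2 paragraphs are of genes beside a gap over 20 kb, beside the 33.5% over all such genes, and listed genes were not tested against others. Nor were lists matched for gap length, with which the share can rise. Of gaps of 20 to 50 kb 14.2% held a far peak, and of those of 1000 kb or more 89.1% held a far peak. In the EMT and mesenchymal list, 12 of 12 genes had one, led by Zeb2 with 39, fibronectin gene Fn1 with 18, Tgfbr2 with 16 and Tgfb2 with 12 (a receptor and a ligand of TGF-beta). Snai1 had 2, and Snai2, Twist1, Vim and Cdh2 had 1 each. In the extracellular matrix list it was 75.6%, and its 31 genes had 209 peaks. Thbs1 led with 39, then the tenascin gene Tnc with 23, the decorin gene Dcn with 19 and Fn1. The 12 collagen genes among them had 63 far peaks, with median folds per gene of 1.98 (Col3a1, 7 peaks) to 4.20 (Col1a1, 2 peaks), 6 genes above and 6 below the 2.34 of all far peaks. The TGF-beta list had 82.4%, including the activin subunit gene Inhbb with 11 and the activin antagonist gene Fst with 10, and the AP-1 list 87.5%, with 15 peaks at Jun and 6 at Fos. The cytoskeleton list had 75% (Rnd3 23, Tns3 17, Lpp 13, Amotl2 8) and the TEAD and YAP list 66.7% (Amotl2 8, Ccn2 7, Ccn1 5, Ankrd1 4).

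Of the mammary lists, myoepithelial contractile genes had 77.8% (Tpm1 8, Myocd 7, Smtn 4, Mrtfb 3) and luminal progenitor genes 70.6% (Sox9 36, Tspan8 5, Aldh1a3 4, Ehf 4). Basal identity genes had 63.2% (Id4 15, Trp63 8, Itga6 7, Tspan8 5) and luminal hormone-sensing genes 60.0% (Gata3 16, Msx2 13, Tbx3 10, Tnfsf11 5). Trp63, which encodes the basal regulator p63, had a median fold of 3.18 over its peaks. Id4 had 2.34, Itga6 2.08 and Tspan8 2.11, beside 2.34 over all far peaks. Epithelial adhesion genes had 41.2% (Grhl2 5, Epcam 4, Cdh1 2, Cldn3 2). Over the whole lists, with or without far peaks, 19 of 20 epithelial adhesion genes had H3K27ac within 1 kb of a gene end and 13 had H3K27me3. Of all autosomal coding genes, 55.2% had H3K27ac there and 31.2% had H3K27me3. H3K27ac lay there at 15 of 22 basal identity genes, Trp63 not among them, and at 10 of 18 myoepithelial contractile genes. It lay there at 9 of 18 luminal progenitor and 9 of 15 luminal hormone-sensing genes. H3K27me3 lay there at 8, 7, 6 and 8 genes of these lists in the same order. In the E and Id protein list 6 of 7 genes had far peaks, with 16 at Tcf4, 15 at Id4, 14 at Id2, 2 at Id3 and 1 each at Tcf3 and at Tcf12, the gene of HEB. Among signalling lists, the EGF family had 71.4% (Btc 9, Errfi1 8, Lrig1 8, Nrg1 8), Wnt 65.2% (Fzd1 11, Sfrp1 10, Fzd8 7, Tcf7l2 7) and Notch 47.4% (Jag1 20, Hes1 14, Rbpj 12, Dll1 5).

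Lists of other lineages gave no uniform picture. Immune markers had 25% (Ptprc 13, Itgam 1) and regulators of other lineages 29.6% (Sox2 21, Isl1 11, Pax3 6, Foxa2 5), both under the 33.5% of all such genes. Endothelial markers had 63.6% (Cdh5 20, Emcn 8, Flt1 3, Cldn5 2) and neuronal markers 55.6% (Stmn2 17, Nefl 4, Snap25 4, Gad1 1). Over the whole lists, with or without far peaks, H3K27ac lay within 1 kb of a gene end at 3 of 12 immune, 1 of 12 endothelial, 1 of 10 neuronal and 3 of 29 other-lineage genes, against 55.2% of all genes. H3K27me3 lay there at 9, 8, 8 and 27 of them. Ptprc, Cdh5 and Stmn2, which led their lists in far peaks, had none of the 3 histone marks there. That was the case for 1 of 12 immune, 3 of 12 endothelial and 1 of 10 neuronal genes. Of all 20661 autosomal coding genes, 3696 had none of the 3 marks either, so these counts do not set the lists apart. Over all lists together, 63.1% of genes beside such a gap had a far peak, and 84.7% of list genes had such a gap, against 57.6% of all genes. An address near a gene is not evidence of its expression, which was not measured.

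**Figure D3:**
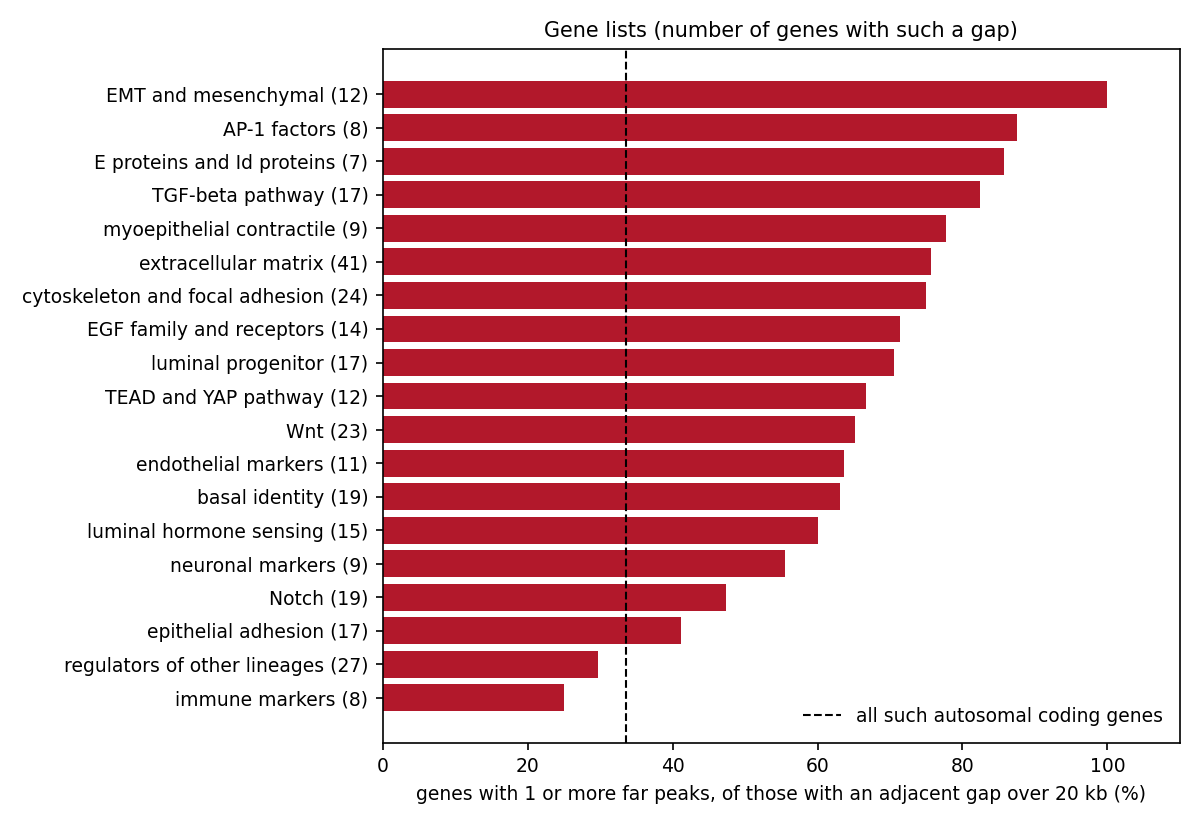
Percent of the genes of each list that had 1 or more far peaks, among genes beside a gap over 20 kb (number in brackets), with the share over all such autosomal coding genes, 33.5%, as a dashed line. The EMT list stands at 100% of 12 genes, and immune markers at 25% of 8 and regulators of other lineages at 29.6% of 27 stand under the line. Lists were not matched for gap length.

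Genes next to far peaks carried active marks more often than other genes beside long gaps. An H3K27ac peak within 1 kb of a gene end stood at 63.1% (61.6 to 64.6) of genes with a far peak and 74.1% (69.1 to 78.6) of those with 10 or more. It stood at 40.4% (39.3 to 41.4) of genes beside a gap over 20 kb with none, and at 55.2% of all autosomal coding genes. H3K4me3 was at 67.4%, 77.9%, 44.0% and 57.3% of the same 4 sets of genes. H3K27me3 was at 28.3%, 15.6%, 39.0% and 31.2%, so the genes with 10 or more far peaks had this Polycomb mark least often of the 4 sets. The choice of peaks removed those overlapping H3K27me3, so the order of these shares can be partly set by that choice. The far peaks themselves lay a median of 68.1 kb from the nearest H3K4me3 peak and 72.7 kb from the nearest H3K27me3 peak. Both distances are partly set by the choice of peaks, which removed overlaps with either mark and the surroundings of coding genes, so they are not compared.

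HEB sites lay in 188 of the 14578 far peaks, 1.29% (1.12 to 1.49), beside 1.23% of all autosomal H3K27ac peaks, so the count as a whole was near the background. It was 1.21% (1.11 to 1.31) of the other autosomal H3K27ac peaks, 0.741% (0.641 to 0.856) of intragenic peaks and 1.34% (1.04 to 1.72) of near intergenic peaks. Width and fold went with it. Among far peaks the share was 0.292% under 1 kb, 0.992% at 1 to 2 kb, 2.37% at 2 to 4 kb and 5.63% (4.32 to 7.31) at 4 to 10 kb. Over all autosomal H3K27ac peaks, far peaks included, the share was 0.269%, 0.706%, 1.78% and 4.10% in the same classes. A wider peak covers more bases that a site can touch. The median width of far peaks was 558 bp in the narrowest class and 5132 bp in the widest. Shares per base were not computed, so how far width alone sets the rise was not tested. In the widest class the share was 3.38% (2.61 to 4.38) of intragenic peaks and 8.0% (5.12 to 12.3) of near intergenic peaks. At a fold of 6 or more it was 9.21% (6.72 to 12.48) of far peaks, 6.29% (4.15 to 9.42) of intragenic, 8.06% (4.44 to 14.2) of near intergenic and 4.44% (3.8 to 5.18) of other autosomal peaks, the last of which include promoters. Intervals of the first 3 overlap.

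**Figure D4:**
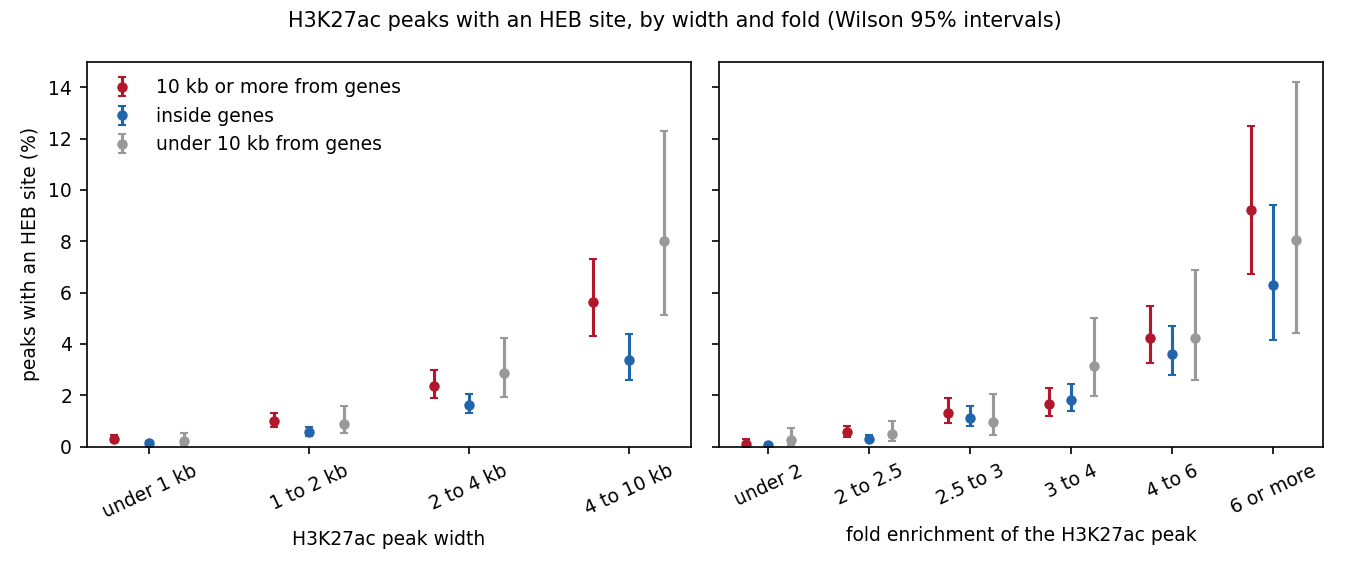
Percent of H3K27ac peaks that hold an HEB site, by peak width (left) and by fold enrichment (right), for far peaks (red), intragenic peaks (blue) and intergenic peaks under 10 kb from a gene (grey), with Wilson 95% intervals. In all 3 sets the share is highest in the widest class, at 5.63%, 3.38% and 8.0%. Shares are per peak and not per base, and wider peaks cover more bases.

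Within far peaks, those holding HEB had a median fold of 3.88 (quartiles 2.73 and 5.38) and width of 2804 bp, against 2.33 (2.01 and 3.04) and 1224 bp without HEB. Within each width class the median fold was higher with HEB, at 2.52 against 2.02 under 1 kb, 2.72 against 2.43 at 1 to 2 kb, 4.49 against 3.28 at 2 to 4 kb and 5.52 against 4.12 at 4 to 10 kb. These classes held 17, 48, 71 and 52 peaks with HEB, and the quartile ranges with and without HEB overlapped in each. Widths with and without HEB were not compared inside a class. In the clusters of 10 or more, 3.94% (2.32 to 6.62) of peaks held HEB, against 0.986% (0.765 to 1.27) of those alone, and the clustered peaks were also wider. By distance from a gene, the share was 1.47% at 10 to 25 kb, 1.61% at 25 to 50 kb, 1.29% at 50 to 100 kb, 1.32% at 100 to 250 kb, 0.729% (0.418 to 1.27) at 250 to 500 kb and 0.568% (0.243 to 1.32) beyond. Among far peaks of 2 kb or wider it was 3.04% (2.08 to 4.42), 4.16%, 3.02%, 3.28%, 2.35% and 0.565% (0.0998 to 3.13) in the same classes, the last being 1 of 177. The share did not fall steadily with distance in either series. Of 189 HEB sites in far peaks, 173 lay wholly inside the peak and 74.1% (67.4 to 79.8) had their centre in the central 50% of its width, a median of 347 bp from the middle. Positions of HEB sites in other H3K27ac peaks were not measured, so this is not shown to be particular to far peaks. Far peaks held 21.6% of the 874 autosomal HEB sites, while they made up 23.7% of all H3K27ac peaks and 19.7% of the bases in them. Of 334 HEB sites that were themselves 10 kb or more from coding genes, 189 lay in a far peak, 103 in another H3K27ac peak and 42 in none.

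The 188 far peaks with HEB were spread over 166 nearest genes, of which 21 had 2 or more. Myc had 3, at 82.8, 216 and 330 kb with folds of 5.21, 2.44 and 3.35. After the peaks near Crabp1 (13.4-fold), Coq2 (11.3-fold) and Mn1 (10.9-fold), the strongest were near Glrp1 (10.1-fold), Brinp3 (9.59-fold), Ttll7 (9.24-fold), Fbxl17 (8.73-fold), Dnajc5b (8.70-fold), Runx1 (8.5-fold) and the corepressor gene Irf2bp2 (8.35-fold). Of the 185 list genes with a far peak, 19 (10.3%) had one with HEB, against 166 of 3990 genes (4.16%). The shares per gene were not adjusted for peaks per gene, with 1018 far peaks over the 185 genes and 14578 over the 3990. Per peak, 21 of the 1018 (2.06%) held HEB, against 1.29% of all far peaks. No interval was computed for the 2.06%, neither difference was tested, and the lists were chosen with earlier results of these data known. The extracellular matrix list had 9 of the 19 genes, the E and Id protein, EMT, TGF-beta and endothelial lists 2 each, and the luminal hormone-sensing, cytoskeleton and Notch lists 1 each, with Fn1 in more than 1 list. The Notch target gene Hes1 had 2, at 30.03 and 153 kb with folds of 2.98 and 6.31. Id3 had 2, at 24.7 and 32.1 kb upstream with folds of 4.73 and 2.07, and Id2 had 1 of 2.97-fold at 92.5 kb. Single peaks with HEB also stood near Fn1 (4.81-fold), Thbs1 (3.15-fold), Zeb2 (3.09-fold at 1070 kb), Inhbb (4.87-fold), Col18a1 (6.69-fold), Col1a2 (6.41-fold), Rnd3 (2.86-fold) and Gata3 (2.73-fold at 1228 kb), and near the endothelial markers Cdh5 (6.01-fold) and Flt1 (5.6-fold). The other 6 list genes, Tgfbr3, Col5a1, Col6a1, Col3a1, Col6a3 and Col4a1, had single peaks with HEB of 2.09 to 5.06-fold.

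Far from coding genes did not mean far from all genes. Of the far peaks, 21.3% overlapped an lncRNA gene and 22.9% some noncoding gene or pseudogene, against 13.4% and 15.05% of near intergenic peaks. Conversely, 1802 of 12408 autosomal lncRNA genes (14.5%) held a far peak. Pvt1, beside Myc, held 32, Gm13986 beside Thbs1 28, 2610307P16Rik 26, Gm12610 18, Gm15270 17 and Morrbid, in the gap next to Bcl2l11, 15. The Gm12610 peaks reached 8.54-fold.

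The start windows of lncRNA genes inside far peaks were poor in CpG. The 325 windows had a median GC content of 48.3% and a ratio of observed to expected CpG of 0.217. Windows of far lncRNA genes under no mark (3762 windows) had 45.7% and 0.197, and those of far lncRNA genes under H3K4me3 and H3K27ac (150 windows) had 55.3% and 0.481. Over all 31396 windows the medians were 53.0% and 0.389. The windows in far peaks were thus nearer to unmarked than to H3K4me3-marked starts in CpG. Far peaks were chosen to overlap no H3K4me3 peak, so this closeness is partly set by that choice.

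The letters TGANTCA, the AP-1 motif, stood in 21.8% (17.7 to 26.7) of windows inside far peaks, beside 7.84% of all autosomal windows. They stood in 10.2% (9.31 to 11.2) of the unmarked far lncRNA windows and 14.0% (9.34 to 20.5) of those with H3K4me3 and H3K27ac. GGAATG, the TEAD motif, stood in 23.7% (19.4 to 28.6) against 16.8%, 15.3% and 14.6% of all windows, and TGTGGT, the RUNX motif, in 28% (23.4 to 33.1) against 21.0%, 24.7% and 16.7%. The general E-box CANNTG stood in 78.2% (73.3 to 82.3) of windows inside far peaks, 80.4% (79.1 to 81.6) of unmarked far lncRNA windows, 76.0% (68.6 to 82.1) of far lncRNA windows with H3K4me3 and H3K27ac and 72.2% (71.7 to 72.6) of all windows. Against all windows its share was thus higher in far peaks with intervals that do not overlap, and against the unmarked far lncRNA windows it was not. The 9514 windows of any gene under H3K27ac and H3K4me3 held CANNTG in 59.0% (58.0 to 60.0) and TGANTCA in 4.65% (4.24 to 5.09). In the same 4 sets, CAGCTG stood in 17.2% (13.5 to 21.7), 16.4%, 17.3% and 16.3%, and CAGGTG or CACCTG in 19.7% (15.7 to 24.4), 19.2%, 18.7% and 20.5%. Both strands were read, CAGCTG and CAGGTG or CACCTG are also CANNTG, and windows of 1 gene can overlap. With 1 window per gene, TGANTCA stood in 22.9% (18.4 to 28.01) of 293 genes inside far peaks and 10.49% (9.46 to 11.6) of 3147 unmarked far lncRNA genes. GGAATG then stood in 22.2% (17.8 to 27.3) and 17.2% (15.9 to 18.5), and TGTGGT in 26.96% (22.2 to 32.3) and 21.6% (20.2 to 23.05). The intervals of GGAATG and of TGTGGT overlap between these sets with 1 window per gene, although with all windows they did not. CANNTG stood in 77.8% (72.7 to 82.2) and 80.6% (79.1 to 81.9), against 72.1% (71.6 to 72.7) of all 25748 genes. A match is a description of letters and was not checked for binding.

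**Figure D5:**
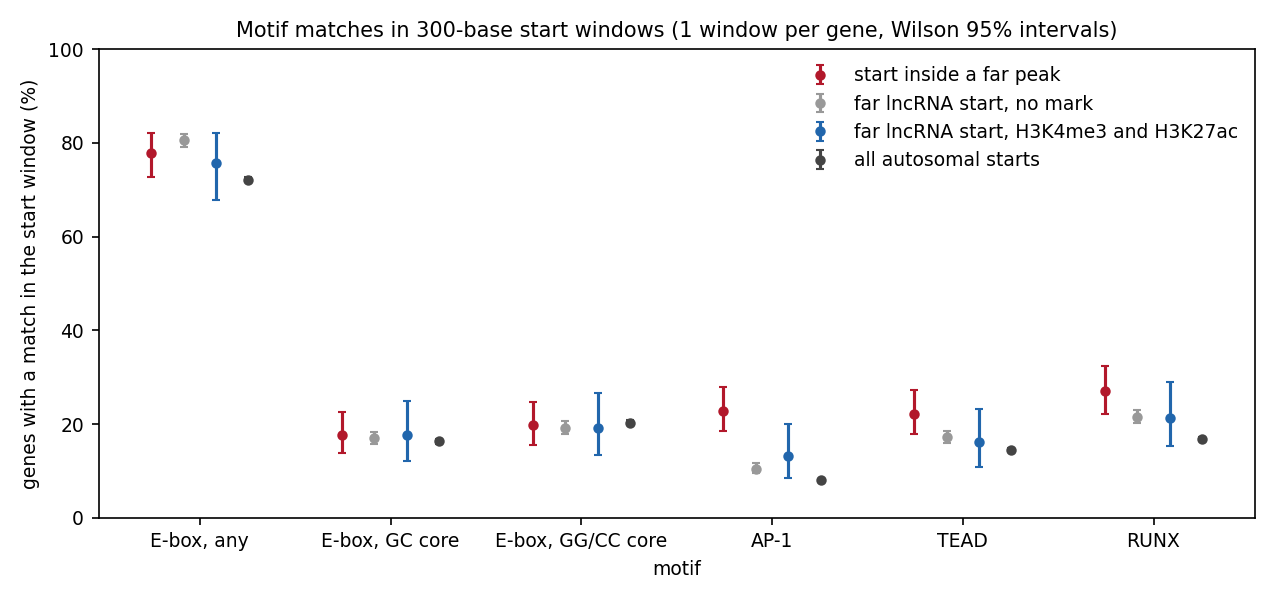
Percent of genes whose 300-base start window holds each motif (1 window per gene, both strands, Wilson 95% intervals), for starts inside a far peak (red), unmarked far lncRNA starts (light grey), far lncRNA starts with H3K4me3 and H3K27ac (blue) and all autosomal starts (dark grey). AP-1 letters stand in 22.9% of starts inside far peaks and 10.49% of unmarked far lncRNA starts, and CANNTG stands in 77.8% of starts inside far peaks, 80.6% of unmarked far lncRNA starts and 72.1% of all starts.

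Of 919 autosomal miRNA hairpins, 61 (6.64%) lay within 10 kb of a far peak, and 9 of these lay inside one. The 9 were Mir34a, Mir30c-2, Mir96 and Mir183 (both in 1 peak), Mir344, Mir344b, Mir7680, Mir21c and Gm51276. The sequences printed are mature miRNAs of 7 of the 61 hairpins, chosen because they are inside a far peak, or near one and share a seed or a family with another. Bases 2 to 8, the seed that pairs with targets, are in capitals, 5′ to 3′, from RefSeq (GRCm38.p6).
miR-34a-5p: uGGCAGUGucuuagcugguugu
miR-30c-5p: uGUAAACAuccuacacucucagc
miR-30a-5p: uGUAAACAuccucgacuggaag
miR-96-5p: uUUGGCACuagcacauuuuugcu
miR-183-5p: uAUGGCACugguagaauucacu
miR-200b-3p: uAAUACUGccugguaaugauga
miR-429-3p: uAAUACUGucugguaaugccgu
The p53-induced miR-34a lay in a 3563 bp peak of 2.64-fold at 16.4 kb from Gpr157. Its hairpin, at chr4:150068454-150068555, had 3 far peaks within 10 kb, counting its own. Among them was the strongest far peak of all, of 14.3-fold, at chr4:150058895-150062920. The hairpin of miR-30c lay in a far peak of 2.64-fold near Ogfrl1. miR-30a, with the same seed GUAAACA, lay 7156 bp from another. Mir96 and Mir183 stood in 1 peak of 2.08-fold near Nrf1, so their values are 1 measurement. Mir200b, Mir200a and Mir429, a family known to repress Zeb1 and Zeb2 in epithelial cells, lay 6552 to 8315 bp from a single strong far peak of 8.83-fold near Ttll10. miR-200b-3p and miR-429-3p share the seed AAUACUG. No peak that held any of the 9 hairpins had an HEB site, beside 1.29% of all far peaks. With that share and so few peaks, none is near the background.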

How the data were processed

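Per the labels, 20 ChIP-seq samples made 5 groups of 4. Positions in the deposited lists are on mm10, and the submitters' processing notes also name SAMtools. Aligner, peak caller, control and replicate combination: not given in the sources used here. In broadPeak layout, the 3 mark lists were deposited with the authors' score, fold enrichment (a ratio of ChIP over control) and −log10 q-value per peak. The score and the −log10 p-value were not used. The deposited HEB list holds positions only, a replicate consensus whose stated minimum overlap is 2.

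Peaks were joined to RefSeq gene, start-window and miRNA tables (GRCm38.p6) in Python 3.11.15 with pandas 2.3.3, NumPy 2.4.6, SciPy 1.17.1 and matplotlib 3.10.9. Overlap meant 1 bp or more. Interval code was tested on simulated data. Far peaks within 12.5 kb were clustered, and each was assigned to the nearest coding gene span. A planned motif search in the peaks was replaced by RefSeq start windows, because no genome was used here.

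Named genes were those nearest to the 10 strongest, 10 widest, 10 strongest HEB-holding and 10 farthest peaks, flanking the 10 clusters with most peaks, the 10 genes with most peaks, up to 4 genes per list and miRNA genes at a peak. Gaps, lncRNA genes, other genes of a list, printed windows and list genes with HEB were chosen after their values were seen. The peaks and all 19 gene lists were chosen with earlier results of these data known.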

Additional observations from a re-analysis of the deposited data

How the results depend on the processing

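No paired analysis was possible because the lists carry no column per replicate, and leaving out replicates was not possible for the same reason. The count of 14578 far peaks became 8468 when all gene types had to be 10 kb away, and 5944 for peaks whose −log10 q reached 5. The share with HEB, 1.29%, became 2.59% at that q and 1.10% with all gene types, and it ran over 0.292%, 0.992%, 2.37% and 5.63% from the narrowest to the widest class. The median fold of 2.34 was 3.30 at that q, 2.34 at 5 kb from genes, 2.32 at 25 kb and 2.34 with peaks within 1 kb merged. The share of far peaks in clusters, 59.0%, was 37.0% with a joining distance of 5 kb, 72.9% with 25 kb and 41.4% at that q. Genes assigned a far peak, 3990, were 2601 at that q. Other settings kept each count within 1.5 times and the HEB share between 1.23% and 1.33%. The choice of 1 start window per gene was made after seeing the data. Depth per sample is unknown, which limits how weak peaks can be read.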
